A study of Mus musculus with 5 samples.

Results

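The genes described here carry out mitosis: 50 named genes for mitotic kinases and a phosphatase, spindle checkpoint and anaphase proteins, centromere and kinetochore proteins, spindle proteins and kinesins, and cytokinesis and chromosome structure proteins. They were chosen by name, with earlier results of these data known. Each symbol matched 1 of the 25549 gene rows of the authors' deposited table. RNA came from mast cells that had been raised from mouse bone marrow in interleukin-3 (50 ng/mL) for 6 to 8 weeks, with no further treatment. The mutant mice, called the miR-9 line here, were C57BL/6 animals with Cpa3-Cre and the miR-9 allele, written Cpa3-Cre;miR-9∆fl/∆fl in the labels (n = 3 samples). Their controls were C57BL/6 animals with Cpa3-Cre alone (n = 2 samples), matched for age and sex, with no ages stated. Both groups carried the Cre recombinase, here under Cpa3 control, a gene active in mast cells. The labels do not state in which direction recombination alters miR-9, nor whether each sample stands for its own mouse. The p-values therefore rest on the variation among these samples alone, and that may be technical. The gene model over the Mir9-1 hairpin, Gm25641, stood 22.6-fold higher in the miR-9 line by the authors' deposited table, a log2 fold change of 4.50 (p = 3.63e-22, adjusted p = 8.74e-18). With no direction stated in the labels, this value shows a difference between the groups at this gene model and cannot check the genotype. The question put to these genes is whether their transcripts differed between the genotypes.

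A cell that enters mitosis condenses its chromosomes, builds a spindle, attaches each chromosome to it through the kinetochore, and holds the anaphase-promoting complex in check until attachment is complete. Destruction of securin and cyclin B then frees separase to part the chromatids, and the central spindle and a contractile ring divide the cell. Most genes for these proteins are transcribed late in the cell cycle, through promoter elements bound by the MuvB complex with B-Myb and FoxM1, and by the CCAAT-binding factor NF-Y. Mast cells from mouse marrow divide in interleukin-3.

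Mitotic transcripts leaned to the miR-9 line, with 1 member, Pttg1, close to 0. All 50 had a p-value and a positive log2 fold change per the authors' deposited table, from 0.04 to 1.69 with a median of 1.32, or 2.49-fold. Over all 24071 rows with a p-value the median per the authors' deposited table was -0.09, and 40.2% of rows were positive. At a Benjamini-Hochberg adjusted p under 0.05, computed here from the authors' deposited table, 9 of the 50 (18%) rose and none fell, where 0.245% of all rows rose and 0.166% fell. At an adjusted p under 0.10 the count higher was 29 of 50 (58%) by the authors' deposited table, where 0.685% of all rows were higher, and 0 members were lower, against 0.282%. At an unadjusted p under 0.05 it was 48 of 50 (96%) by the authors' deposited table, where 3.87% of all rows were higher, and 0 were lower, against 4.05%. The submitters' own threshold, an unadjusted p under 0.0001, was met by 4 of 50 (8%) on the higher side of the authors' deposited table, where 0.158% of all rows met it, and by 0 on the lower side, against 0.141%. The members that passed at 0.05 were Cdc25c, Ckap2l, Ect2, Cks1b, Cdca3, Nusap1, Cenpa, Mad2l1 and Tacc3. Tacc3 lay just inside the threshold with an adjusted p of 0.0497, and Mki67 just outside it with 0.0560. The counts describe the list and are no independent evidence of its direction.

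**Figure D1:**
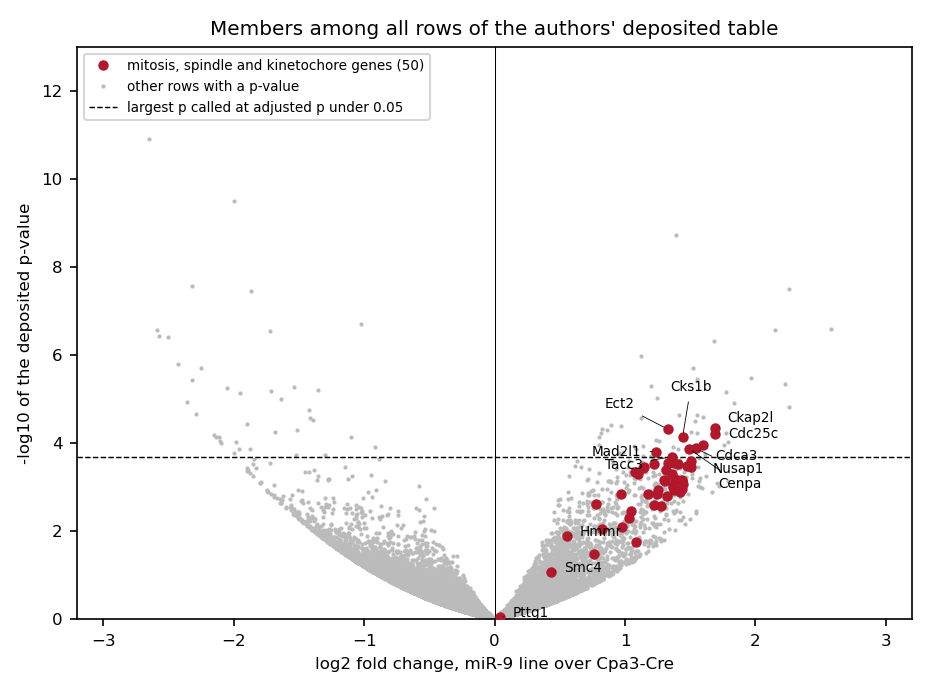
Deposited log2 fold change, miR-9 line relative to Cpa3-Cre (x axis) against -log10 of the deposited p-value (y axis) for the 50 mitosis genes (red) and the other rows with a p-value (grey), with 1 row outside the axes. All 50 mitosis genes lie right of 0, and the 2 lowest on the y axis are Pttg1, at 0.04, and Smc4, at 0.43. The dashed line marks the largest p called at an adjusted p under 0.05.

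The values lay close together. In the authors' deposited table, 36 of the 50 log2 fold changes fell between 1 and 1.5, 6 lay above 1.5 and 8 below 1. Of all rows with a p-value, 1.39% exceeded 1 per the authors' deposited table, and 124 rows exceeded the members' median. Of those rows 25 were members, a count fixed by taking the members' own median as the cut. Values per sample were not used here, so the error of each gene was read from its fold and p-value, on the assumption of a two-sided normal test. The standard error implied in this way by the authors' deposited table ranged from 0.22 to 0.46 on the log2 scale, with a median of 0.39. Within 1 such error of the members' median of 1.32 lay 43 of the 50 genes, so the order of most members among themselves is not resolved. In a bulk culture, more cells in mitosis and more of these transcripts per cell cannot be told apart.

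**Figure D2:**
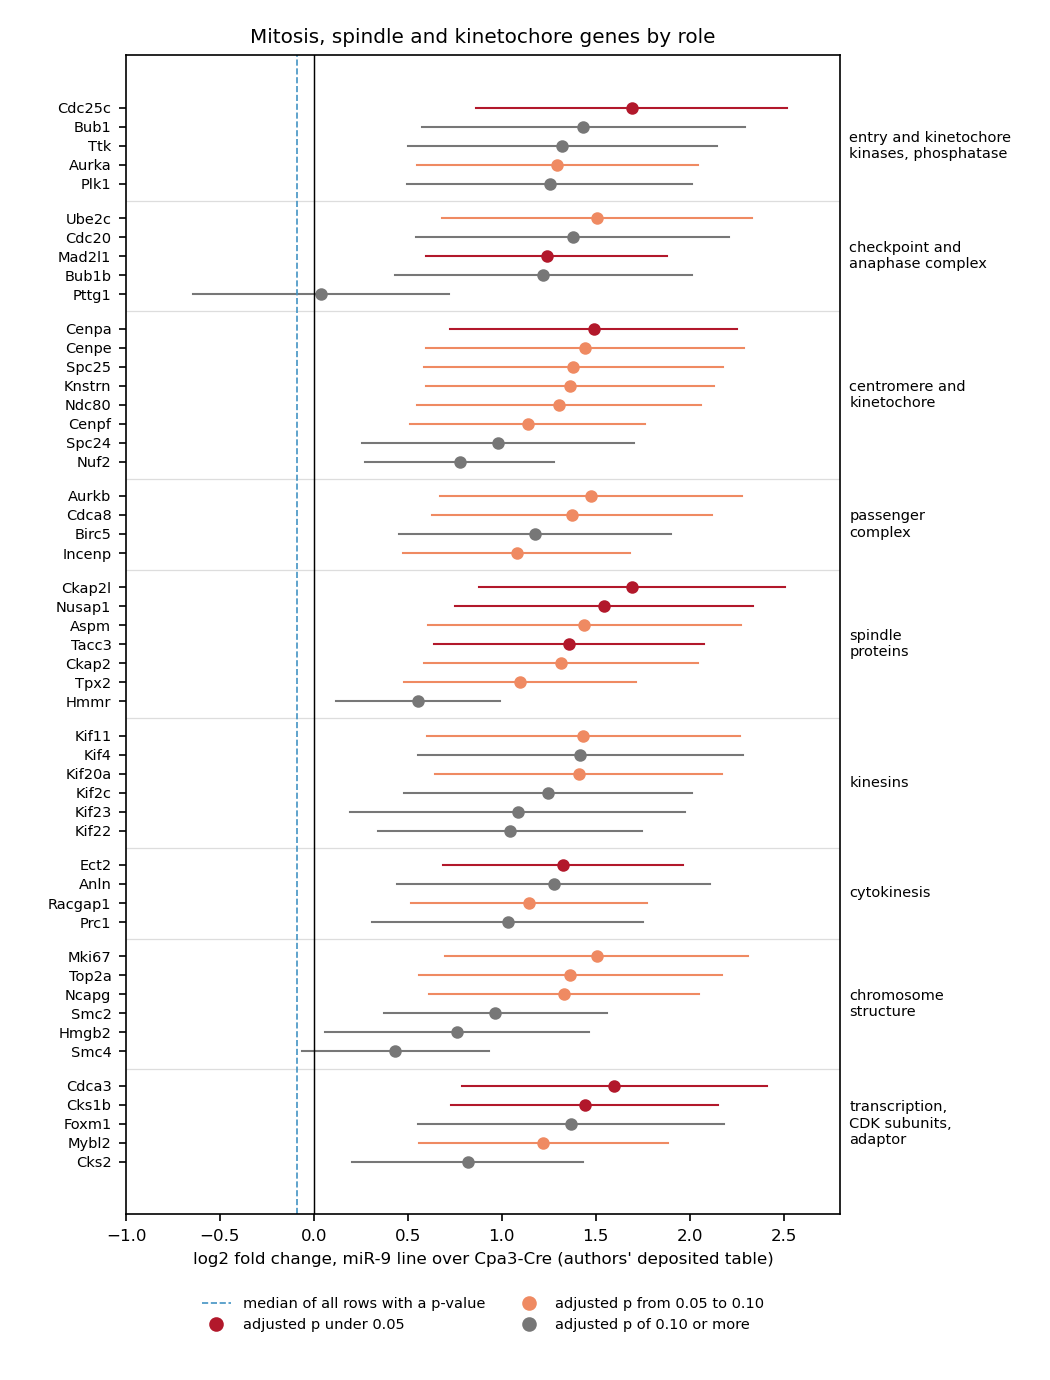
Deposited log2 fold change, miR-9 line relative to Cpa3-Cre (x axis) for each of the 50 genes, grouped by role. Points are the deposited values, bars are 95% intervals implied by fold and p-value under a two-sided normal test, and the dashed line is the median of all rows with a p-value (-0.09). The intervals of 48 genes lie above 0, and those of Pttg1 and Smc4 include it.

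The regulators of mitotic entry were led by Cdc25c, the phosphatase that activates Cdk1 at the onset of mitosis. Cdc25c rose by 1.69 on the log2 scale per the authors' deposited table (3.23-fold, p = 6.1e-05, adjusted p = 0.0245). Its fold was the highest of the 50 genes, with Ckap2l next to it. The kinases did not pass. Bub1, a kinetochore kinase of the spindle checkpoint, stood at 1.43 per the authors' deposited table (adjusted p = 0.108), and Ttk, the kinase that starts checkpoint signalling, at 1.32 (adjusted p = 0.131). Aurka, which matures the spindle poles, stood at 1.30 per the authors' deposited table (2.46-fold, p = 0.000688, adjusted p = 0.0860), and Plk1, which acts from entry to cytokinesis, at 1.26 (adjusted p = 0.111). All 5 genes of this group had an unadjusted p under 0.05.

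Among the checkpoint and anaphase genes, Mad2l1, whose protein binds and blocks the anaphase activator Cdc20, rose by 1.24 per the authors' deposited table (2.36-fold, p = 0.000156, adjusted p = 0.0417). Ube2c, the ubiquitin-conjugating enzyme of the anaphase-promoting complex, had the highest value of the group per the authors' deposited table, 1.51 (2.84-fold, p = 0.000343, adjusted p = 0.0657). Cdc20 stood at 1.38 per the authors' deposited table (adjusted p = 0.112) and Bub1b, the checkpoint protein BubR1, at 1.22 (adjusted p = 0.166). Pttg1, which encodes securin, the inhibitor of separase, had the lowest value of the whole set. Its log2 fold change per the authors' deposited table was 0.04 (p = 0.911, adjusted p = 0.991), with an implied 95% interval from -0.64 to 0.72. That interval does not reach the median of the 50 genes. Neither do those of Smc4 (upper end 0.93), Hmmr (0.99) and Nuf2 (1.28). These genes were singled out after their values were seen, and the median comes from the same samples. Their distance from the median was not tested. Espl1, which encodes separase, the protease held by securin, stood at 1.46 per the authors' deposited table (adjusted p = 0.0860). Whether Pttg1 and Espl1 differ from each other was not tested.

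At the centromere, Cenpa, the histone H3 variant that marks it, rose by 1.49 per the authors' deposited table (2.81-fold, p = 0.000134, adjusted p = 0.0386). Cenpe, a kinetochore motor, stood at 1.44 per the authors' deposited table (2.72-fold, p = 0.000838, adjusted p = 0.0913), Knstrn, a spindle and kinetochore protein, at 1.36 (2.57-fold, p = 0.0005, adjusted p = 0.0762) and Cenpf, a late-cycle kinetochore protein, at 1.14 (2.20-fold, p = 0.00036, adjusted p = 0.0657). The 4 subunits of the NDC80 complex, which binds microtubules, did not stand at the same value. Spc25 stood at 1.38 per the authors' deposited table (2.60-fold, p = 0.000667, adjusted p = 0.0860) and Ndc80 at 1.31 (2.47-fold, p = 0.000732, adjusted p = 0.0860). Spc24 stood at 0.98 (adjusted p = 0.311) and Nuf2, the lowest of the kinetochore genes, at 0.78 (adjusted p = 0.164) per the authors' deposited table. The implied intervals of all 4 overlap.

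The chromosomal passenger complex corrects wrong attachments and then directs cytokinesis. Its kinase gene Aurkb stood at 1.48 per the authors' deposited table (2.78-fold, p = 0.000328, adjusted p = 0.0646) and Cdca8, for borealin, at 1.37 (2.59-fold, p = 0.000289, adjusted p = 0.0601). Birc5, for survivin, stood at 1.18 per the authors' deposited table (adjusted p = 0.124) and Incenp, the scaffold, at 1.08 (2.11-fold, p = 0.000464, adjusted p = 0.0729). None of the 4 passed at 0.05, and all 4 had an unadjusted p under 0.05.

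The spindle proteins held the most calls, 3 of 7, where 0.245% of all rows rose. The group of Cdca3, Cks1b, Foxm1, Mybl2 and Cks2 held 2 of 5. Ckap2l, a microtubule-associated protein of the spindle, rose by 1.69 per the authors' deposited table (3.23-fold, p = 4.62e-05, adjusted p = 0.0225). Nusap1, which bundles microtubules near chromosomes, rose by 1.54 (2.92-fold, p = 0.000133, adjusted p = 0.0386), and Tacc3, which stabilizes kinetochore fibres, by 1.36 (2.56-fold, p = 0.000205, adjusted p = 0.0497) per the authors' deposited table. Aspm, a spindle pole protein, stood at 1.44 per the authors' deposited table (2.71-fold, p = 0.000707, adjusted p = 0.0860), Ckap2 at 1.32 (2.49-fold, p = 0.000405, adjusted p = 0.0689) and Tpx2, the activator of Aurora A, at 1.10 (2.14-fold, p = 0.000494, adjusted p = 0.0758). Hmmr, a hyaluronan-binding protein also found on the spindle, was the lowest of the group per the authors' deposited table at 0.55 (p = 0.0130, adjusted p = 0.390), with an implied 95% interval from 0.12 to 0.99.

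None of the 6 kinesin genes passed at 0.05. Kif11, the motor that separates the spindle poles, stood at 1.43 per the authors' deposited table (2.70-fold, p = 0.000728, adjusted p = 0.0860) and Kif20a, a central spindle motor, at 1.41 (2.65-fold, p = 0.000298, adjusted p = 0.0612). The chromosome motor Kif4 stood at 1.42 per the authors' deposited table (adjusted p = 0.117) and Kif2c, a microtubule depolymerase, at 1.24 (adjusted p = 0.124). Kif23, a subunit of centralspindlin, stood at 1.08 per the authors' deposited table (adjusted p = 0.439) and the chromosome motor Kif22, the lowest of the kinesins, at 1.04 (adjusted p = 0.198).

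For cytokinesis, Ect2, the exchange factor that activates RhoA at the cell equator, rose by 1.33 per the authors' deposited table (2.51-fold, p = 4.82e-05, adjusted p = 0.0225). Racgap1, the partner of Kif23 in centralspindlin, stood at 1.14 per the authors' deposited table (2.21-fold, p = 0.00035, adjusted p = 0.0657). The ring scaffold gene Anln stood at 1.28 per the authors' deposited table (adjusted p = 0.174) and the microtubule bundler gene Prc1 at 1.03 (adjusted p = 0.240).

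Chromosome structure genes ranged from 0.43 to 1.51 per the authors' deposited table. Mki67, the proliferation marker that coats mitotic chromosomes, stood at 1.51 per the authors' deposited table (2.84-fold, p = 0.000251, adjusted p = 0.0560), Top2a, the topoisomerase that untangles sister chromatids, at 1.37 (2.58-fold, p = 0.000932, adjusted p = 0.0976) and Ncapg, a condensin I subunit, at 1.33 (2.52-fold, p = 0.000288, adjusted p = 0.0601). The 2 ATPases of condensin stood lower per the authors' deposited table, Smc2 at 0.97 (adjusted p = 0.124) and Smc4 at 0.43 (p = 0.0863, adjusted p = 0.718). The implied 95% interval of Smc4 ran from -0.06 to 0.93. Hmgb2, a chromatin protein of dividing cells, stood at 0.76 per the authors' deposited table (p = 0.0335, adjusted p = 0.553).

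Of the remaining genes, Cdca3, an adaptor for the destruction of the mitotic inhibitor Wee1, rose by 1.60 per the authors' deposited table (3.03-fold, p = 0.000113, adjusted p = 0.0362). Cks1b, a small subunit of cyclin-dependent kinases, rose by 1.44 per the authors' deposited table (2.72-fold, p = 7.12e-05, adjusted p = 0.0268). Its paralogue Cks2 stood at 0.82 per the authors' deposited table (adjusted p = 0.326), with no test of the difference. The transcription factor gene Foxm1 stood at 1.37 per the authors' deposited table (adjusted p = 0.101) and Mybl2, for B-Myb, at 1.22 (2.33-fold, p = 0.000305, adjusted p = 0.0612).

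Because these genes are known to share promoter elements, their promoters were read from RefSeq (GRCm38.p6) as windows of 250 bases before and 50 bases from the annotated start. Of the 50 genes, 42 had such a window, 2 of them with 2 start sites, and any match in either window was counted. The 8 others were Aurkb, Cdc25c, Foxm1, Incenp, Kif20a, Smc4, Spc24 and Tpx2. The window's start was the same base as the start of the RefSeq gene span in 21 of the 42. Measured from the 5' end of the deposited gene span, it lay within 50 bases in 33 of the 42 (first start site of each) and over 250 bases away in 5, so shares and positions hold for these windows only. The letters searched on both strands were TTTGAA or TTCGAA for the cell cycle homology region (CHR) that MuvB binds, and CCAAT for the NF-Y box. For E2F the letters were TTTCGCG or its variants, one being TTTGGCG and the other being TTTCCCG. A CHR word and an NF-Y word can share no more than an end base. A match is a run of letters and says nothing of binding. The CHR letters were found in 32 of 42 members (76.2%), against 21.7% of 27025 genes with a window. NF-Y letters were found in 31 (73.8%), against 41.1% of all genes. Both stood together in 29 members (69.0%), against 8.61% of all genes, and E2F letters in 6 (14.3%), against 6.38%. Among 13245 genes with a window and a p-value, the shares were 17.9% (CHR), 42.1% (NF-Y), 7.47% (both) and 9.32% (E2F). With 6 members, the E2F share is imprecise. In 29 of the 42 (69.0%) a CHR match began within 50 bases of the start, against 6.12% of all genes.

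**Figure D3:**
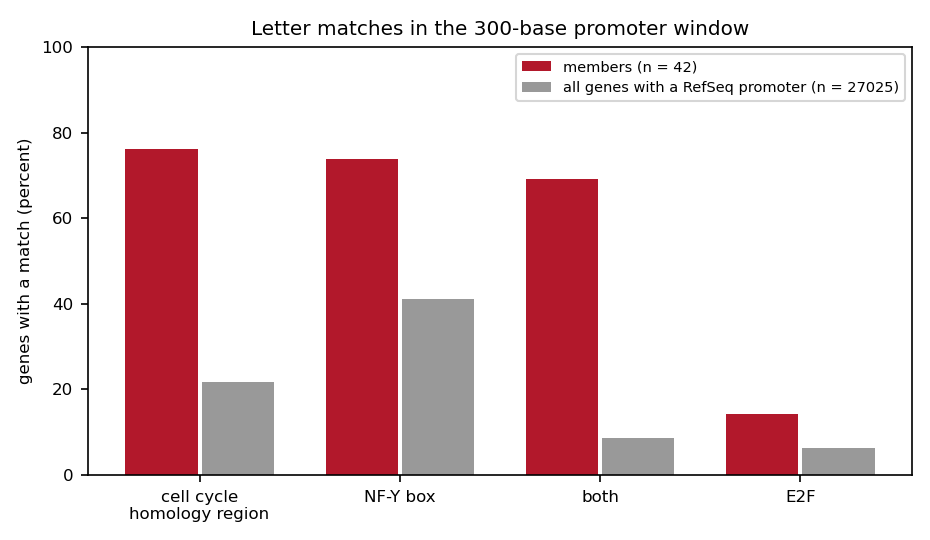
Percent of genes with a letter match (y axis) for the 42 mitosis genes with a RefSeq window (red) and all 27025 genes with one (grey). The bars for the cell cycle homology region together with the NF-Y box stand at 69.0% in the mitosis genes and 8.61% in all genes.

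The stretches below run from 100 bases before the start to its base 30, and capitals mark the CHR and NF-Y letters on either strand. The first 5 belong to genes that rose and have both elements in their window, and Kif11 and Cdc20 were added after their matches were seen, because the 2 elements lie close together there. Mad2l1, which rose, and Pttg1, which did not pass, are shown because neither has these letters anywhere in its window. Their windows are not centred on the deposited gene spans: the start used lies 270 bases inside the gene for Pttg1 and 169 bases upstream of it for Mad2l1. Of the other stretches, the start lies 629 bases inside the deposited span for Cdca3, 109 for Cenpa and 92 for Cks1b. RefSeq places them in GRCm38.p6 at chr2:129297183-129297312, minus strand (Ckap2l), chr6:124830076-124830205, plus strand (Cdca3), chr5:30666786-30666915, plus strand (Cenpa), chr3:89418262-89418391, minus strand (Cks1b), chr3:27153825-27153954, minus strand (Ect2), chr19:37376282-37376411, plus strand (Kif11), chr4:118437314-118437443, minus strand (Cdc20), chr6:66535121-66535250, plus strand (Mad2l1) and chr11:43425952-43426081, minus strand (Pttg1).
Ckap2l: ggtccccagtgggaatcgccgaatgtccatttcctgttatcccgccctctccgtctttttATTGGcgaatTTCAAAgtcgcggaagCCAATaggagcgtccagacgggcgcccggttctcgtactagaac
Cdca3: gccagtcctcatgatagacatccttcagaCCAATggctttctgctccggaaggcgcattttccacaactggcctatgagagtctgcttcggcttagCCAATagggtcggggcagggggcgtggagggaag
Cenpa: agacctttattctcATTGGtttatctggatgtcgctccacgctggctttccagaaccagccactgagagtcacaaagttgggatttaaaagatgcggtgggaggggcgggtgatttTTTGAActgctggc
Cks1b: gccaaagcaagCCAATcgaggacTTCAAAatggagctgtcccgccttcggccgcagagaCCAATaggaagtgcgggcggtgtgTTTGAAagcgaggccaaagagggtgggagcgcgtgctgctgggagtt
Ect2: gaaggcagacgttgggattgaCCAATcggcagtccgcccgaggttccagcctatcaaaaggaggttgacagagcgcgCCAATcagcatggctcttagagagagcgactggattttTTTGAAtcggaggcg
Kif11: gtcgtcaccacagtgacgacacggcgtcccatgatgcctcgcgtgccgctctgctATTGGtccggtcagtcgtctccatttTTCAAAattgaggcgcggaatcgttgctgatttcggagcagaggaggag
Cdc20: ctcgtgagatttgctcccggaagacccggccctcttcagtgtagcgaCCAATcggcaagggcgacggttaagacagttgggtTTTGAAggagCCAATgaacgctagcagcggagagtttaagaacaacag
Mad2l1: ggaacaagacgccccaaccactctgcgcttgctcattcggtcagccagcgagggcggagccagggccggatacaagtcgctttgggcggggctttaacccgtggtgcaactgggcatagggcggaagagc
Pttg1: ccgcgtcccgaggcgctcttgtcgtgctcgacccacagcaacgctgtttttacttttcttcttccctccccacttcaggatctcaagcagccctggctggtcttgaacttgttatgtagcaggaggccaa

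In Ckap2l, Cks1b, Kif11 and Cdc20 a CHR match lies just upstream of the start, with an NF-Y box before it. Cenpa and Ect2 have one just after the start, and in Cdca3 it begins just beyond the stretch shown, 30 bases past the start. The 29 members with both had log2 fold changes from 0.55 to 1.69 per the authors' deposited table (median 1.33), and the 13 others with a window had values from 0.04 to 1.54 (median 1.24). Hmmr, with 0.55, has a CHR match and 5 NF-Y matches, and Nusap1, which rose by 1.54 per the authors' deposited table, has neither. Absence says only that these letters are not in this window.

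**Figure D4:**
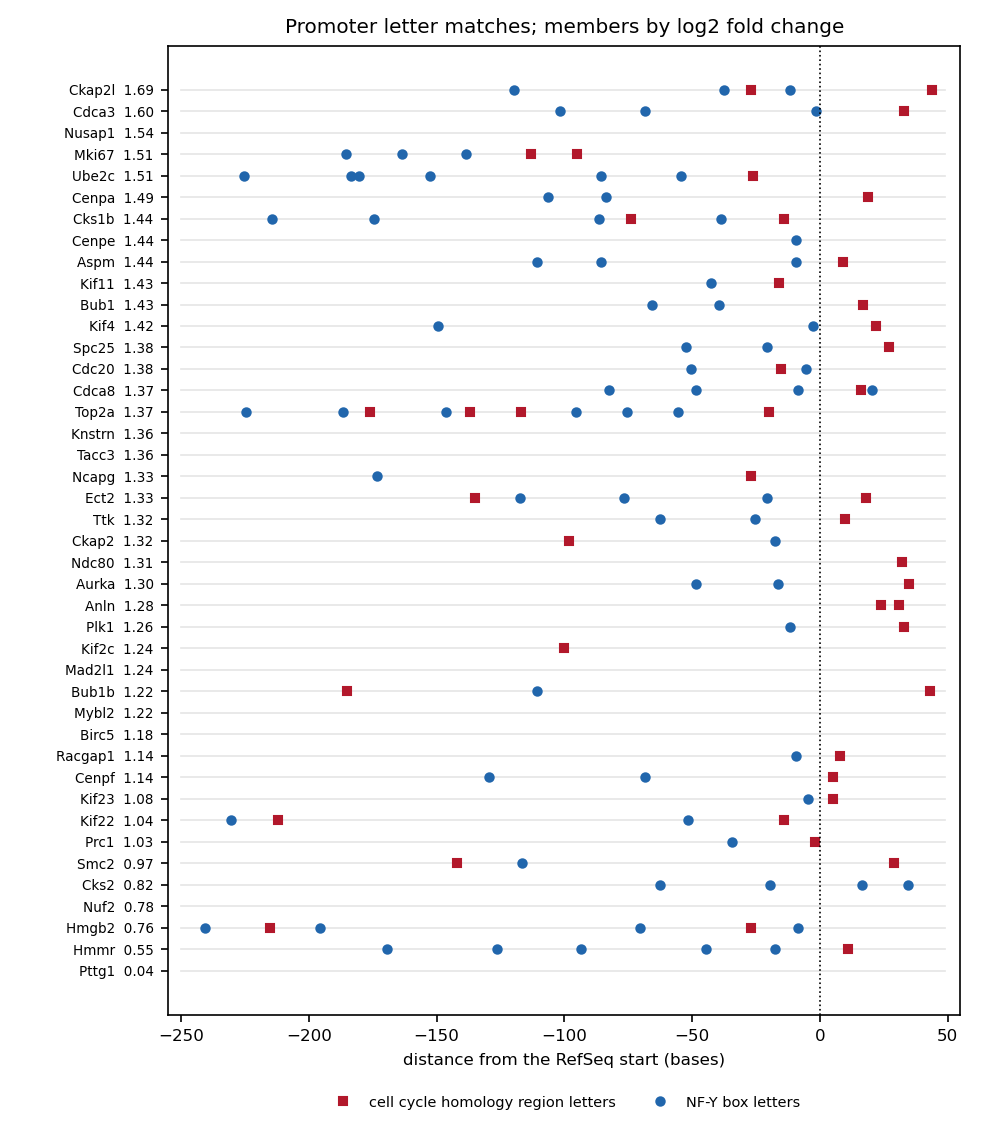
Positions of the cell cycle homology region letters (squares) and NF-Y box letters (circles) in the RefSeq window of 42 mitosis genes, as distance from the start (x axis, bases), with genes from the highest to the lowest deposited log2 fold change (printed beside each name). Squares gather within 50 bases of the start in 29 genes.

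Since the mice differ at miR-9, the longest 3' UTR annotated in GENCODE M21 was searched in all 50 members for matches to the seed of each mature strand. The mature sequences in RefSeq, with the seed (bases 2 to 8) in capitals, are the same at the 3 mouse miR-9 loci.
mmu-miR-9-5p: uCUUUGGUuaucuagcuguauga
mmu-miR-9-3p: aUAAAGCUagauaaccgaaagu
Matches to the miR-9-5p seed were found in 5 of 50 members (10%), against 13.2% of 15424 genes with a p-value and a 3' UTR. The same count, 5 of 50 (10%), held matches to the miR-9-3p seed, against 11.9% of those genes. The members' 3' UTRs were shorter, with a median of 593.5 bases against 1072 bases. Cdca3, Nusap1 and Cenpa, which rose, carry the miR-9-5p match, as do Hmmr and Hmgb2, and Ect2 and Mad2l1, which rose, carry the miR-9-3p match, as do Plk1, Cenpf and Racgap1. All 10 had positive values per the authors' deposited table, as had all 50 members, so the sign says nothing of the matches. The miR-9-5p matches of the 3 genes that rose, on the sense strand of chromosomes 6, 2 and 5 in the order printed, have the match in capitals.
Cdca3: atccccaagggcACCAAAGaaagccctgt
Nusap1: tgtaccaccaaaACCAAAGctgagaattg
Cenpa: gagtgtttgcagACCAAAGgtcaatttgg
The Cdca3 match is also followed by an A, and 1 of 50 members (2%) carried that longer form of the miR-9-5p site, against 4.35% of the genes searched. For miR-9-3p the longer form was found in 4 of 50 members (8%), against 4.36%. No test was made of these shares.

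Other genes of cell division had lower medians. The members and these lists were chosen with earlier results of these data known, and members were left out of the lists. The gap in medians therefore describes the lists and is no independent evidence that the members differ from other mitotic genes. The 7 other lists of mitotic genes and their regulators had 157 genes with a p-value, a median of 0.41 per the authors' deposited table, 138 positive values and 4 calls, all higher. Those 4 were Cdk1, the kinase that drives mitosis (1.55, adjusted p = 0.0245), Mastl, which restrains a phosphatase that opposes Cdk1 (1.20, adjusted p = 0.0484), Ncapg2 of condensin II (1.37, adjusted p = 0.0377) and Rcc1, the chromatin-bound exchange factor for Ran (1.08, adjusted p = 0.0386), all per the authors' deposited table. Among 19 other kinases, cyclins and phosphatases the median per the authors' deposited table was 0.99, from Cdc14b at -0.30 to Pbk at 1.57. Ccnb2, the cyclin B2 gene, had a log2 fold change of 1.55 but no p-value per the authors' deposited table. Other spindle and centrosome genes had a median of 0.60 per the authors' deposited table, from Psrc1 at -0.14 to Stil at 1.46, and other kinetochore genes 0.57, from Nsl1 at -0.08 to Knl1 (listed as Casc5) at 1.42. Other cytokinesis genes had a median of 0.55 per the authors' deposited table, from Plekhg6 at -0.31 to Shcbp1 at 1.45. Condensin, cohesin and chromosome genes had a median of 0.31 per the authors' deposited table, from Stag2 at -0.14 to Ncapg2.

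Complexes of these lists differed in their medians, from 0.05 to 1.14. The 5 condensin I genes, 3 of them members, had a median of 1.13 and the 4 NDC80 genes, all members, 1.14 per the authors' deposited table. The 14 core subunits of the anaphase-promoting complex had a median of 0.13 and a highest value of 0.37 (Anapc5) per the authors' deposited table, and none had an unadjusted p under 0.05. The checkpoint and separation list that holds them had a median of 0.25 and ran from Mad2l1bp at -0.30 to Espl1 at 1.46 per the authors' deposited table, and Fbxo5, the inhibitor of the complex, stood at 1.18 (adjusted p = 0.0839). The 9 cohesin subunits and loaders had a median of 0.17 and the 8 augmin subunits 0.31 per the authors' deposited table, with 1 and 2 of them at an unadjusted p under 0.05. Of the transcription machinery the 5 MuvB core genes had a median of 0.20 and the 3 NF-Y genes 0.05 per the authors' deposited table, each with 1 gene at an unadjusted p under 0.05. The list of DREAM and MuvB genes as a whole had a median of 0.32 and ran from E2f5 at -0.41 to E2f8 at 0.97 per the authors' deposited table, without a call. For the genes and complexes described here as not passing, a p-value above the threshold does not show that they were unchanged.

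DNA replication genes, which act earlier in the cell cycle, were positive in 34 of 34 cases per the authors' deposited table and had a median of 0.85, from Pcna at 0.24 to Mcm10 at 1.40. Of these, 2 rose, Mcm10 and Rrm1 (adjusted p = 0.0386 and 0.0396 in that order), where 9 of the 50 mitosis genes did. Whether the medians of 1.32 and 0.85 differ was not tested, since both come from the same 5 samples and genes are not replicates.

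**Figure D5:**
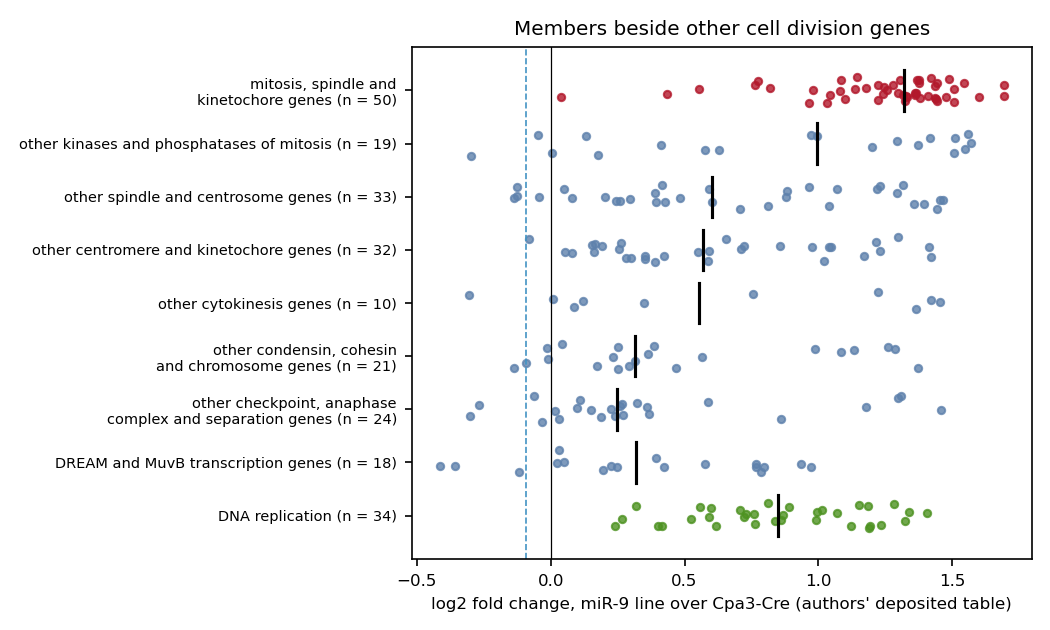
Deposited log2 fold change, miR-9 line relative to Cpa3-Cre (x axis) for the 50 mitosis genes (red), 7 lists of other mitotic genes and regulators (blue) and DNA replication genes (green). Dots are genes, spread vertically at random for visibility, black bars are medians, and the dashed line is the median of all rows with a p-value. The mitosis genes have the highest median, 1.32, ahead of other kinases and phosphatases at 0.99 and DNA replication at 0.85. Genes and lists were chosen with earlier results of these data known.

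Position and gene models were checked beside these values. The members lie on 16 chromosomes, with 10 of 50 (20%) on chromosome 2 against 9.08% of rows with a p-value. In GRCm38, Nusap1 spans 119618298 to 119651244 and Ckap2l 129268210 to 129297212 on chromosome 2, Ect2 27097222 to 27153878 and Cks1b 89415472 to 89418383 on chromosome 3, Cenpa 30666777 to 30674827 and Tacc3 33658128 to 33678995 on chromosome 5, and Mad2l1 66535390 to 66541033 and Cdca3 124829547 to 124833701 on chromosome 6. Summed exon length ranged from 692 bases (Cks2) to 11491 bases (Aspm), and across the 50 genes its rank correlation with the log2 fold change per the authors' deposited table was 0.05 (Spearman's rho, a description across genes that share the same libraries). Exon bases were shared with a gene on the opposite strand by 7 members, and by 10% or more of their length in Kif20a (33.2%, with Cdc23), Kif4 (15.1%, with Pdzd11) and Ncapg (13.3%, with Lcorl). Cdc23, Pdzd11 and Lcorl stood at 0.22, 0.26 and 0.27 per the authors' deposited table, in that order. Among the called members, Nusap1 shared 4.24% with Oip5, which stood at 0.97 (p = 0.0039) per the authors' deposited table. Of the 3 others, Knstrn shared 2.38% with Gm14091, at 1.42 (p = 0.00365), Cdc20 2.84% with Elovl1, at 0.60 (p = 0.0195), and Cdca8 4.48% with 9930104L06Rik, at -0.21 (p = 0.462), per the authors' deposited table. The sources used here leave unstated whether reads were counted by strand, so these values are uncertain.

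The defining mast cell markers Kit, Fcer1a, Ms4a2 and Cpa3 all had a p-value and stood at -0.04, 0.09, 0.10 and 0.42 per the authors' deposited table, in that order. Of 19 mast cell markers 18 had a p-value per the authors' deposited table, their median was 0.10, and 1 was called (Tpsb2, higher). None of 14 neutrophil, 3 of 14 monocyte and macrophage, 1 of 8 eosinophil and 3 of 8 dendritic cell markers had a p-value per the authors' deposited table. The 12 erythroid and megakaryocyte markers with one had a median of 0.45 per the authors' deposited table, with 9 positive values, no call and a highest value of 1.09 (Hbb-bs), and the 8 multipotent progenitor markers a median of -0.19. Of 5 basophil markers, 3 had a p-value, with a median of -0.35 per the authors' deposited table, 1 positive value (Cd200r3, 0.16) and 2 negative. Prss34 (0.52) and Mcpt8 (0.13) were positive without a p-value per the authors' deposited table. The 8 lymphocyte and 9 stromal markers with a p-value had medians of -0.49 and -0.51 per the authors' deposited table. Negative values were held by 6 lymphocyte and 7 stromal markers, and positive values by 2 of each. The lowest were Cd3d at -1.03 (unadjusted p = 0.00887) and Pdgfra at -1.47 (unadjusted p = 0.00628) per the authors' deposited table. No basophil, lymphocyte or stromal marker was called. Levels of these markers in each sample were not used, and the part of other cells in the mitotic values was not tested.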

How the data were processed

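Per the labels' protocols, RNA of cultured mast cells was heparinase-treated, depleted of ribosomal RNA and sequenced as strand-marked paired reads of 50 bases. Per the submitters' processing notes, the tools were DESeq, Cuffdiff, DESeq2, HTSeq and STAR and the builds mm10 and GRCm38, with neither roles nor versions stated. Per the labels' design text, the authors ran DESeq2 for the statistics; it also mentions an analysis of variance, so the test behind the p-values is unclear. For each gene the authors deposited a log2 fold change (the miR-9 line relative to Cpa3-Cre), its signed linear fold (a score) and an unadjusted p-value, the last for 24071 of 25549 genes. Filters and any shrinkage of the fold changes, which would make them smaller, are unstated. A further 5 columns hold values of single libraries under names that fit none of the labels; they were not used, so depth, values per sample and left-out samples were not analysed.

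P-values of the authors' deposited table were adjusted by the Benjamini-Hochberg method over all 24071 genes with statsmodels 0.14.6, and an adjusted p under 0.05 was called. This is the design set for a table without usable columns per library. Implied standard errors are the log2 fold change divided by the two-sided normal quantile of its p-value (scipy 1.17.1), an assumption, since the test statistic itself was not used here. Gene models were taken as deposited; listed genes absent under their current symbol were sought under older RefSeq symbols, 4 (Aurkc, Sept2, Sept7 and Sept9) stayed without a row, and 3 (Ccnb2, E2f2 and Rbl2) had no p-value. Promoters and miRNAs came from RefSeq (GRCm38.p6) and 3' UTRs from GENCODE M21 (GRCm38). The planned search for protein degradation motifs was not run. Named genes were all 50 members, with fold and both p-values for those under an adjusted p of 0.10, and, of each other mitotic or replication list, the called genes and the highest and lowest; other names (Espl1, Fbxo5, Ccnb2, Anapc5, markers) were chosen after their values were seen. Members and lists were chosen with earlier results of these data known. The adjustment was tested on simulated independent genes and the motif search on planted matches. These tests check the code alone, since genes measured in the same samples are not independent. Python 3.11.15, pandas 2.3.3 and matplotlib 3.10.9 were used.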

Additional observations from a re-analysis of the deposited data

How the results depend on the processing

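All values and all counts of calls come from the authors' deposited table. Of the 50 mitosis genes 9 were called, with 18 called when the adjustment ran over 16580 protein-coding rows (of which 0.495% were then higher and 0.253% lower), 29 at an adjusted p under 0.10, and 8 (without Tacc3) when missing p-values counted as 1. An unadjusted p under 0.0001, the submitters' own threshold, left 4 (Cdc25c, Ckap2l, Cks1b and Ect2), where 0.158% of all rows were higher. The Benjamini-Yekutieli and Holm adjustments left 0, with 48 at an unadjusted p under 0.05. Of the other mitotic genes 4 were called, against 11 over protein-coding rows, 27 at 0.10, 1 at 0.0001 and 0 by either stricter adjustment. Of the replication genes 2 were called, against 5 at 0.10, 0 at 0.0001 and 0 by either stricter adjustment. No gene of these 3 sets was called lower under any of these settings. The median of the 50 stayed between 1.23 (as a mean) and 1.32, and the share with both promoter elements was 66.7% in a window of 200 bases, in place of 69.0%. The miR-9-5p share was 2% for the longer site in place of 10%, and the miR-9-3p share 8% in place of 10%, fewer sites being possible by construction. No paired analysis was possible because the columns per library carry no replicate numbers that match the labels; for the same reason left-out replicates, other normalizations and filters on counts were not run, nor was the search for degradation motifs, for want of protein sequences. Depth per sample was not analysed, and with 3 and 2 samples the precision of each fold is limited to the implied errors given above.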

Other observations

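The promoter letters of the mitosis genes also occur in other genes. In the RefSeq windows, 960 other genes with a p-value had both the cell cycle homology region and the NF-Y letters, with a median log2 fold change of -0.10 per the authors' deposited table. The 12243 other genes without the pair had the same rounded median, -0.10. At an adjusted p under 0.10, 19 of the 960 (1.98%) and 66 of the 12243 (0.539%) were higher, and 6 (0.625%) and 36 (0.294%) were lower, in the same order. Only the mitosis genes were left out, so genes of the other mitotic, regulator and replication lists were counted here. Those lists hold most of the 19: Cdc25b, Cdk1, Cenpn, E2f3, Espl1, Fbxo5, Hmgb3, Kif14, Kifc1, Mcm2, Ncapd2, Spag5 and Spdl1. The shares therefore do not describe genes outside cell division. This comparison was added after the promoter counts of the members were seen, and no test was made. At an adjusted p under 0.05, 3 of the 960 rose and 5 fell, and of the 12243 without the pair 28 rose and 20 fell. The 3 that rose were Asf1b, a histone chaperone of replicating cells, by 1.55 (adjusted p = 0.0142), Cdk1 by 1.55 (adjusted p = 0.0245) and Traip, a ubiquitin ligase of replication and mitosis, by 1.24 (adjusted p = 0.0308), all per the authors' deposited table. Among the 16 others were Cdkn3, a phosphatase of cyclin-dependent kinases (1.42), and Prr11, a late-cycle gene (1.13), per the authors' deposited table. Both were named after their values were seen.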
